A study of Mus musculus with 6 samples.

Results

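Deletion of one copy of the region around Wnt6 was compared with the unedited state in mouse embryonic stem cells (mESCs) by RNA sequencing. The comparison took 4 of the 6 libraries of the series, 2 labelled wild type and 2 labelled Wnt6 heterozygous deletion. Genes entered when they held at least 10 counts in at least 2 of these 4 libraries, which 16701 of the 55385 genes in the deposited table did. The question was which genes and functional groups differed between the heterozygous and the wild-type cells, across the whole transcriptome. The other pair of libraries came from a homozygous deletion and served to estimate the spread and for one direct comparison of the deletions.

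The wild-type cells were G4 mESCs, a line of 129/Sv × C57BL/6 F1 hybrid background. The heterozygous and homozygous cells were derived from it by CRISVar, in which a pair of guide RNAs cuts out the stretch between them, and edited cells are picked and grown as clones. Genotype and clone therefore go together, and differences due to the deletion and differences due to clonal derivation cannot be told apart here. Every group was kept in medium with LIF on CD1 feeder cells, and the labels give no other treatment. The labels do not say whether the replicates of a genotype were separate clones or cultures, so each p-value measures only the spread between these samples, which may be technical. The study's methods speak of triplicates, and 2 labelled replicates of each genotype were analysed here. Feeder layers are fibroblasts, and poly(A) RNA was taken from directly lysed cultures. In such bulk RNA, fewer cells of a type and less RNA per cell cannot be told apart.

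Wnt6 encodes a secreted ligand of the Wnt family, which signals through Frizzled receptors and, in the canonical branch, stabilises beta-catenin. In mESCs many genes for such developmental ligands and transcription factors are held at very low levels under the Polycomb mark H3K27me3, and distant marked regions can contact each other in the nucleus. mESCs in LIF express a network of naive pluripotency factors and can give rise to embryonic germ layers, to primitive endoderm and, less readily, to trophectoderm, the outer epithelium of the blastocyst.

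The targeted gene was checked first. Wnt6, on chromosome 1 of GRCm38 between 74771892 and 74785322, held 11 and 13 counts in the wild-type libraries, 6 and 4 in the heterozygous libraries and 0 in both homozygous libraries. The heterozygous values were below both wild-type values, but the difference did not pass the test (log2 fold change -1.15 ± 0.54, adjusted p = 0.292). Here and below, ± after a log2 fold change is its standard error, with 2 libraries in each group, and adjusted p comes from the quasi-likelihood test of edgeR with Benjamini-Hochberg adjustment over all genes tested. Cdk5r2, which encodes an activator of the kinase Cdk5, was listed here with Wnt6 as a gene of the deletion interval. It was measured at 1.02 and 1.06 CPM in the wild-type libraries and 0.643 and 0.638 CPM in the heterozygous libraries. In the homozygous libraries it was at 0.0437 and 0.0769 CPM. Its heterozygous values also lay below the wild-type values without passing the test (log2 fold change -0.69 ± 0.32, adjusted p = 0.285). CPM is the count of a gene scaled to a common library size, after TMM factors for the composition of the library. Totals ran from 23813912 to 28964706 counts over the 6 libraries, and 3 counts corresponded to between 0.102 and 0.131 CPM. The pluripotency factors Pou5f1, Sox2, Nanog and Zfp42 were present in all 4 libraries, with Pou5f1 at 974 and 991 CPM in the wild-type libraries and 930.5 and 876 CPM in the heterozygous libraries.

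In the heterozygous cells 373 genes rose and 493 fell at an adjusted p below 0.05, which was 2.23% and 2.95% of the genes tested. Most of these changes were small, with a median absolute log2 fold change of 0.344, and 232 of the 866 exceeded 0.5. At an absolute log2 fold change above 1 as well, 7 genes rose and 21 fell, or 0.0419% and 0.126% of the genes tested. The 866 genes were 5.19% of those tested. The groups did not overlap in any of them, but the same held for 8000 (47.9%) of all genes tested. The median log2 fold change over all genes tested was -3.68e-05, with 8354 genes below 0 and 8347 above it. Leaving out any one library reduced the calls. Without wild-type replicate 1 there were 190 higher and 218 lower genes, and without wild-type replicate 2 there were 154 and 194. Without heterozygous replicate 1 there were 239 and 369, and without heterozygous replicate 2 there were 158 and 194.

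**Figure D1:**
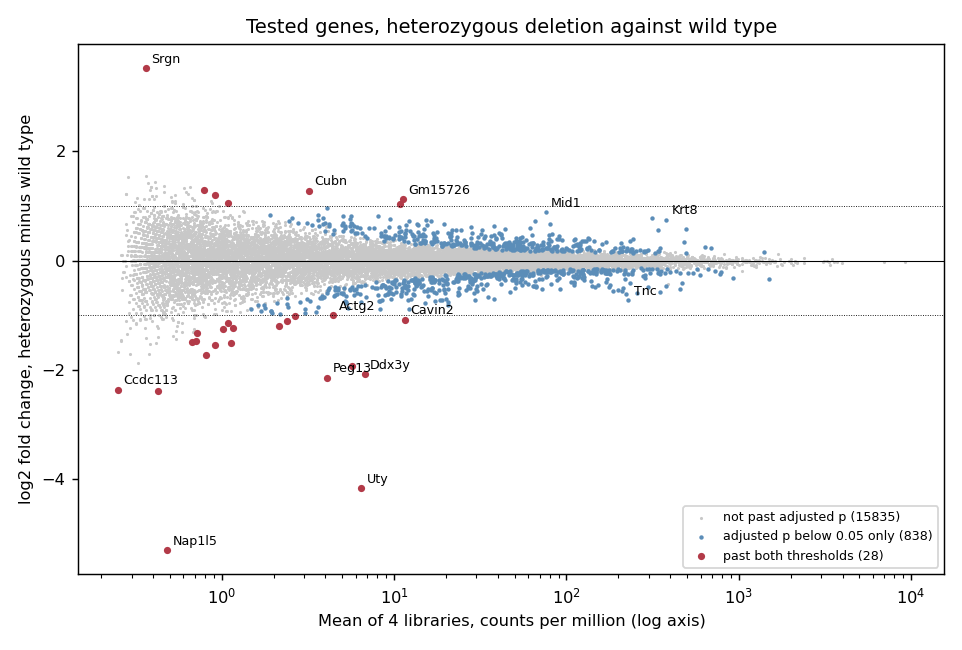
Each point is 1 of 16701 tested genes, placed by its mean CPM over the 4 libraries (log axis) and its log2 fold change, heterozygous minus wild type. Red points are the 28 genes past both thresholds, blue points the 838 genes past the adjusted p alone, and grey points the rest; dotted lines mark log2 fold changes of 1 and -1, and by definition every blue point lies between them.

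The 28 genes past both thresholds came from several functions and were mostly of low abundance. Among the 7 that rose were Srgn, which encodes the granule proteoglycan serglycin, Cubn, which encodes the endocytic receptor cubilin of visceral endoderm and kidney, and Plac1, a gene of the trophoblast. Filip1, whose product binds filamin A, Clic5, an intracellular chloride channel protein of actin-rich projections, and Crybg1, a protein with crystallin domains, rose with them. The last of the 7 was Gm15726, annotated as an antisense transcript within Mid1. Srgn was measured at 0.0681 and 0.0391 CPM in the wild-type libraries and 0.522 and 0.826 CPM in the heterozygous libraries, that is 2 and 1 counts against 13 and 22. The 3 wild-type and 35 heterozygous counts gave a ratio of 12.4 (exact 95% interval 3.92 to 63.2, counting error only), and the log2 fold change of 3.52 ± 0.63 passed the test (adjusted p = 0.00165). Cubn reached 4.54 and 4.58 CPM in the heterozygous libraries against 2.01 and 1.72 CPM in wild type (log2 fold change 1.28 ± 0.18, adjusted p = 0.000108). Plac1 stood at 0.442 and 0.666 CPM in the wild-type libraries and 1.37 and 1.16 CPM in the heterozygous libraries (log2 fold change 1.20 ± 0.32, adjusted p = 0.035).

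Of the 21 genes that fell past both thresholds, the imprinted, Y-linked, contractile and caveolar members are described with their groups below. The others included Foxc2, a forkhead factor of paraxial mesoderm and vessels, at 1.4 and 1.49 CPM in the wild-type libraries and 0.643 and 0.563 CPM in the heterozygous libraries (log2 fold change -1.25 ± 0.34, adjusted p = 0.035). Mcub, the inhibitory subunit of the mitochondrial calcium uniporter, fell from 1.36 and 1.64 to 0.522 and 0.826 CPM, and it was the 1 of 7 tested subunits and regulators of that channel to pass the test. Aurkc, the meiotic Aurora kinase, Calb2, which encodes the calcium buffer calretinin, Hsd3b6, a steroid dehydrogenase, and Mcpt8, a mast cell protease, also fell. Ccdc113, a protein of cilia, and Sprr2k, of the small proline-rich family of the epidermis, fell to under 0.3 CPM in both heterozygous libraries. Lgals3bp, a secreted galectin ligand, and Ifi202b, an interferon-inducible DNA sensor, were lower at 1.65 and 1.39 against 3.17 and 3.41 CPM and 1.53 and 1.99 against 3.51 and 3.68 CPM. Eva1a, a regulator of autophagy, the long noncoding RNA Gm32885 and the processed pseudogenes Gm18558 and Rps2-ps13 completed the list. Reads of such pseudogenes cannot be separated from those of near-identical copies, and Gm18558 lies within Tdrd12, which itself fell by 0.39 on the log2 scale. With each of the 4 libraries left out in turn, 11 of the 28 genes stayed past the adjusted p every time. Aurkc, Calb2, Ccdc113, Clic5, Eva1a, Filip1, Foxc2, Mcub and Plac1, 9 in all, stayed past it in none of the 4.

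**Figure D2:**
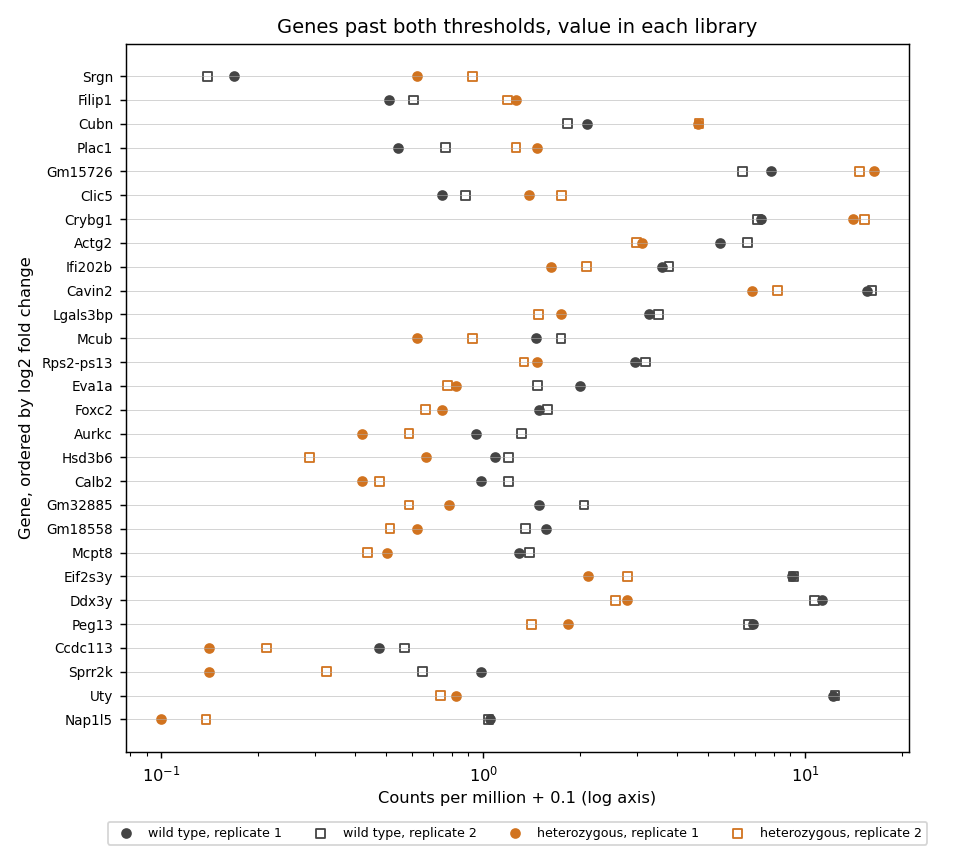
Each row is 1 of the 28 genes past both thresholds, ordered by log2 fold change, and each symbol is 1 library, placed at its CPM plus 0.1 (log axis). Grey symbols are wild type and orange symbols heterozygous, filled for replicate 1 and open for replicate 2; in every row the orange pair and the grey pair do not overlap.

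Imprinted genes, which are expressed from the maternal or the paternal copy alone, gave 2 of the largest decreases and a set of moderate increases. Of 59 tested, 6 rose, 2 fell and 51 did not pass, and the median log2 fold change was 0.07. Nap1l5, a paternally expressed nucleosome assembly protein gene that lies within Herc3 on the opposite strand of chromosome 6, held 28 and 24 counts in wild type against 0 and 1 in the heterozygous libraries. The ratio of wild type to heterozygous was 48.8 (exact 95% interval 8.37 to 1960, counting error only). The host Herc3 was measured at 32.1 and 32.2 CPM in the wild-type libraries and 35 and 34 CPM in the heterozygous libraries, and did not pass the test (log2 fold change 0.10 ± 0.065, adjusted p = 0.477). Peg13, a paternally expressed noncoding RNA within Trappc9 on chromosome 15, fell from 6.81 and 6.58 CPM to 1.73 and 1.31 CPM (log2 fold change -2.14 ± 0.17, adjusted p = 1.20e-07). Trappc9 gave -0.12 ± 0.078 (adjusted p = 0.485). Neither host passed the test, whereas both nested genes fell.

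In the homozygous libraries Nap1l5 held 28 and 35 counts and Peg13 stood at 7.13 and 7.96 CPM. Homozygous values were thus above heterozygous values for both genes, and the direct test of homozygous against heterozygous cells passed for each (adjusted p = 1.74e-06 and 3.84e-09). The start of Nap1l5 is shown because methylation of CpG dinucleotides marks the silent copy of many imprinted genes. The window of RefSeq runs from 250 bases before to 50 bases after the start, chr6:58907077-58907376, minus strand, GRCm38.p6. Its 17 CpG dinucleotides are in capitals, and 41.8% of the windows of tested genes held as many or fewer. Most of them lie around the start itself, near the end of the window.
Nap1l5: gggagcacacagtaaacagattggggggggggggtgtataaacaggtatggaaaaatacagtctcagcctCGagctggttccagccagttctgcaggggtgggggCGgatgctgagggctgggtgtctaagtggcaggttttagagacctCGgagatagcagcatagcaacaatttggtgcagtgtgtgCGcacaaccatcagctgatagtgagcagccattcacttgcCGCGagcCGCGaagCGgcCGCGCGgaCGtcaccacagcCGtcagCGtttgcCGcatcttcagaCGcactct
No methylation was measured here.

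The 6 imprinted genes that rose were Igf2, Peg10, Nnat, Sfmbt2, H19 and Slc38a4. Igf2, the growth factor, had 2.48 and 2.31 CPM in the wild-type libraries and 3.42 and 4.36 CPM in the heterozygous libraries (log2 fold change 0.70 ± 0.18, adjusted p = 0.0242). Its neighbour H19, a noncoding RNA expressed from the opposite parental copy, had 43.4 and 44.2 CPM in the wild-type libraries and 57.5 and 54.2 CPM in the heterozygous libraries (log2 fold change 0.35 ± 0.057, adjusted p = 0.000663). Peg10, a retrotransposon-derived gene needed in the placenta, was the most abundant of them and rose from 395 and 395 to 585 and 603 CPM (log2 fold change 0.59 ± 0.042, adjusted p = 5.44e-08). Nnat, a small membrane proteolipid gene nested in Blcap, rose from 25.5 and 27.4 to 38.6 and 35.6 CPM, and Blcap gave 0.19 ± 0.062 (adjusted p = 0.0836). Sfmbt2, a Polycomb-group gene that is imprinted in extraembryonic tissue, gave 0.36 ± 0.048. Igf2 lost its call without either wild-type library or without heterozygous replicate 2, with adjusted p between 0.127 and 0.373.

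Listed Y-linked genes fell in 3 of 5 cases, and none of their X-linked counterparts passed the test. Uty, Ddx3y and Eif2s3y passed, and Kdm5d and Uba1y did not (log2 fold changes -0.67 ± 0.38 and -0.99 ± 0.51). Eif2s3y, the Y-linked copy of a translation initiation subunit, fell from 9.02 and 9.08 to 2.01 and 2.7 CPM (log2 fold change -1.93 ± 0.15, adjusted p = 1.20e-07). Uty, a homologue of an H3K27 demethylase, stood at 0.723 and 0.638 CPM and Ddx3y, an RNA helicase, at 2.69 and 2.48 CPM in the heterozygous libraries. All 3 were therefore still detected in both heterozygous libraries, at between 0.638 and 2.70 CPM. Of the 7 X-linked partners 0 passed in edgeR, 0 reached an unadjusted p below 0.05, and 0 passed in DESeq2. Kdm6a gave -0.00 ± 0.048, Ddx3x 0.04 ± 0.038 and Eif2s3x 0.01 ± 0.046 on the log2 scale, and their groups overlapped except for Ddx3x, which was slightly higher in both heterozygous libraries. Xist, the noncoding RNA of the inactive X chromosome, did not pass (log2 fold change -0.27 ± 0.12, adjusted p = 0.242). Reads of Y-linked genes and their X-linked partners can be shared where the sequences are near-identical, and how such reads were counted is not given in the sources used here.

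Mid1, a ubiquitin ligase gene that crosses into the pseudoautosomal region of the X chromosome, rose from 55.4 and 51 to 95.8 and 101 CPM (log2 fold change 0.88 ± 0.067, adjusted p = 1.17e-07). The antisense Gm15726 within it rose from 7.76 and 6.3 to 16.2 and 14.7 CPM, and the Y-linked pseudogene Mid1-ps1 from 51.8 and 45.9 to 77 and 70.8 CPM. These 3 features share sequence or overlap, and their reads may not be separable, so these values are uncertain.

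Keratins of simple epithelium rose, and other genes of trophectoderm mostly did not pass. Of 16 tested trophectoderm genes, 5 rose, none fell and 11 did not pass, and the list's median log2 fold change was 0.45. Among those that rose were the keratins Krt7, Krt8, Krt18 and Krt19, which form the intermediate filaments of simple epithelia. Krt8 was measured at 284 and 279.9 CPM in the wild-type libraries and 489 and 457 CPM in the heterozygous libraries (log2 fold change 0.75 ± 0.048, adjusted p = 1.50e-08). Its partner Krt18 had 225 and 235 CPM in the wild-type libraries and 396 and 396 CPM in the heterozygous libraries (log2 fold change 0.78 ± 0.043, adjusted p = 2.21e-09). For both genes each heterozygous library was above each wild-type library. Krt19 rose from 30.8 and 28.3 to 48.3 and 44 CPM and Krt7 from 9.02 and 9.32 to 14.5 and 14.4 CPM. The transcription factors that define trophectoderm did not pass. Cdx2 had 0.953 and 1.17 CPM in the wild-type libraries and 1.81 and 1.61 CPM in the heterozygous libraries (log2 fold change 0.69 ± 0.26, adjusted p = 0.151), Gata3 gave 0.55 ± 0.19 (adjusted p = 0.13), and Tfap2c gave 0.04 ± 0.064 (adjusted p = 0.852). Elf5 was below the count filter. In the whole keratin family, a list written after the values had been seen, 4 of 13 tested genes rose, 8 did not pass, and Krt42 fell (log2 fold change -0.39 ± 0.09, adjusted p = 0.0129). All 5 trophectoderm calls held with each library left out in turn.

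Krt8 and Krt18 lie next to each other on chromosome 15 and rose by nearly the same amount, so both start windows are shown, with CpG dinucleotides in capitals. The window of Krt8 is chr15:102004293-102004592, minus strand, and that of Krt18 chr15:102027966-102028265, plus strand, in GRCm38.p6 from RefSeq, 23373 bases apart. Krt8 has 6 CpG dinucleotides, a count that 13.2% of the windows reach or stay under, and a TATAAA motif at its start. Krt18 has 17 of them and no TATAAA.
Krt8: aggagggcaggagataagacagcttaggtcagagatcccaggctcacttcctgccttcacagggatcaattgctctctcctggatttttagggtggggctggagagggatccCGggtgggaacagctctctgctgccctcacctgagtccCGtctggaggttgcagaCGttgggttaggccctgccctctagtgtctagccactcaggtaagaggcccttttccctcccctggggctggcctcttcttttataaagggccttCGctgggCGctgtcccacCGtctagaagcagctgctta
Krt18: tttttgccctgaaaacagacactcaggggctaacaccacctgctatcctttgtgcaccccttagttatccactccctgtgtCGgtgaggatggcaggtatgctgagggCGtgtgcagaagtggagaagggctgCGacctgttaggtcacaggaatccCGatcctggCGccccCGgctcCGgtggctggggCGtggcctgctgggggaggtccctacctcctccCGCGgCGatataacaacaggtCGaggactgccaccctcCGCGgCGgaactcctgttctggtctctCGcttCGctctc
The neighbours thus rose alike from windows of unlike composition.

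In the list of 23 epithelial and mesenchymal genes 6 rose, 2 fell and 15 did not pass, with a median log2 fold change of 0.03. Core genes of epithelial adhesion and identity were among those that did not pass. Cdh1, which encodes E-cadherin, gave 0.02 ± 0.038, the adhesion molecule Epcam 0.02 ± 0.041, and the splicing regulator Esrp1 0.03 ± 0.043. Some other genes of epithelial junctions rose. The lists for desmosomes, claudins, the tight junction plaque, hemidesmosomes, collagens and other families named below were written after the values had been seen, and their counts are descriptions. Of 12 tested desmosome and plakin genes, 6 rose and none fell, with a median log2 fold change of 0.26. Dsp, which encodes desmoplakin, the link between desmosome and keratin filament, rose from 62.9 and 60.9 to 96.3 and 99.6 CPM (log2 fold change 0.66 ± 0.048, adjusted p = 5.44e-08). The desmosomal cadherins Dsc2 and Dsg2 gave 0.75 ± 0.082 and 0.33 ± 0.053 on the log2 scale, the plakin Ppl 0.50 ± 0.075, Perp 0.48 ± 0.047 and the plakophilin Pkp2 0.18 ± 0.048. Of 9 claudins, Cldn4 and Cldn6 rose, by 0.31 and 0.34, and the other 7 did not pass. Among 22 genes of the tight junction plaque and of polarity 9 rose and 1 fell. Cgn, which encodes cingulin, rose from 112 and 110.1 to 146 and 139 CPM, the angiomotin family member Amotl1 from 115 and 116 to 151 and 154 CPM and the virus receptor Cxadr from 45.6 and 45.8 to 57.4 and 56.8 CPM. The junction scaffold Tjp1 rose by 0.17, and the adhesion molecule Jam2 was the 1 that fell (log2 fold change -0.37 ± 0.077). With each library left out in turn, 5 genes of this list rose.

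Integrins and laminins changed in both directions, with 2 of 29 higher and 3 lower. Itga3, a subunit of laminin receptors, rose from 277 and 273 to 407 and 404 CPM (log2 fold change 0.56 ± 0.04, adjusted p = 5.44e-08). Itga11, Lama2 and Itgb1 fell, by 0.89, 0.69 and 0.16 on the log2 scale, but with each library left out in turn only 0 or 1 gene of the list fell. Itga11 is a collagen receptor of fibroblasts and Lama2 a laminin chain of muscle and mesenchyme. Arap3, a regulator of small GTPases, was also among the 10 highest log2 fold changes at 10 CPM or more, at 0.67 ± 0.077.

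**Figure D3:**
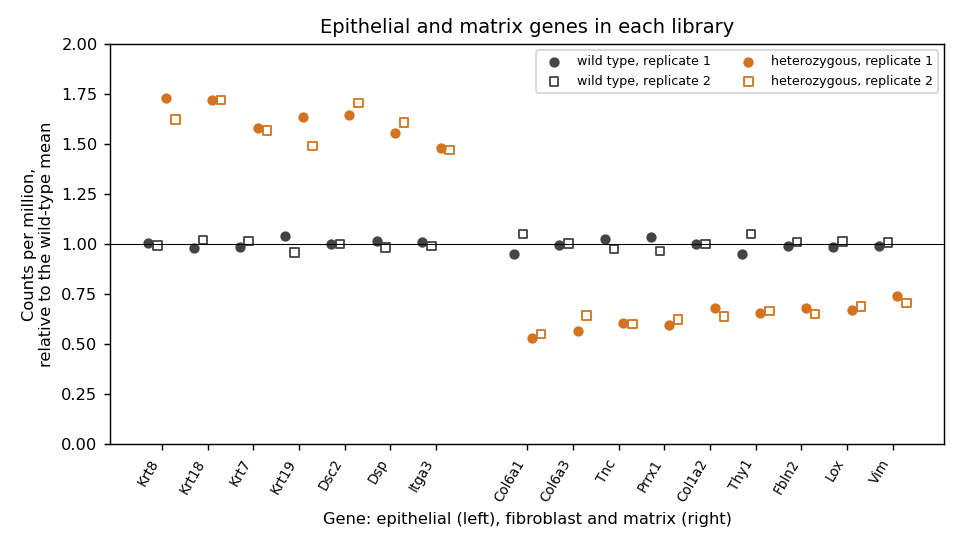
CPM of 7 epithelial genes and 9 fibroblast and matrix genes in each of the 4 libraries, divided by the mean of the 2 wild-type libraries. Grey symbols are wild type and orange symbols heterozygous, filled for replicate 1 and open for replicate 2; the genes were chosen among those that passed the test, which fixes the side of 1 on which the heterozygous pair lies, and members of the same lists that did not pass are not drawn.

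Genes of fibroblasts and of the matrix that they secrete fell. Of 39 tested in the fibroblast and feeder list, 30 fell, none rose and 9 did not pass, and the median log2 fold change was -0.48. The summed level of the list was 7873 and 7864 CPM in the wild-type libraries and 6049 CPM in both heterozygous libraries. Of the 40 listed genes only Lum was below the count filter, and none was at 0 in all 4 libraries. With each library left out in turn, between 25 and 27 genes of the list fell. The part of feeder cells in each library is not given by the labels, and their part in these differences was not tested.

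Collagen chains fell. Col6a1, Col6a2 and Col6a3, which encode the common chains of the microfibrillar collagen VI, gave -0.88 ± 0.096, -0.60 ± 0.10 and -0.73 ± 0.07 on the log2 scale. The further chains Col6a4, Col6a5 and Col6a6 did not pass. Col6a1 was measured at 15 and 16.6 CPM in the wild-type libraries and 8.4 and 8.71 CPM in the heterozygous libraries. The fibrillar collagen chains Col1a1 and Col1a2 fell from 425 and 408 to 297 and 262 CPM and from 267 and 268 to 182 and 170.3 CPM. Their differences of -0.57 ± 0.05 and -0.60 ± 0.047 were alike, with adjusted p = 6.01e-07 and 1.20e-07. Over the whole collagen family 13 of 39 tested genes fell and none rose (median -0.32), among them Col5a3 and Col8a1, by 0.77 and 0.75. Of the chains of basement membrane collagen IV, Col4a5 fell by 0.32 and the abundant pair did not pass. Col4a1 gave 0.13 ± 0.044 (adjusted p = 0.0934) and Col4a2 0.04 ± 0.049 (adjusted p = 0.78).

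Enzymes and partners of these collagens fell too. Lox and Loxl1, which crosslink collagen and elastin, fell by 0.55 and 0.45, and of 21 collagen-modifying genes 9 fell and none rose. That count was 3 without either wild-type library and 2 without heterozygous replicate 2. Of 29 matrix glycoproteins 18 fell, led by Mgp, an inhibitor of calcification (-0.80 ± 0.21), and Tnc, which encodes tenascin-C. Tnc fell from 292 and 278 to 173 and 171 CPM (log2 fold change -0.73 ± 0.043, adjusted p = 5.06e-09). Prrx1, a homeobox factor of mesenchyme, fell from 24.5 and 22.9 to 14.1 and 14.8 CPM and the intermediate filament gene Vim from 433 and 439.6 to 323 and 308 CPM. Penk, the precursor of enkephalins, and Thbd, the thrombin cofactor thrombomodulin, were among the 10 lowest genes at 10 CPM or more, at -0.82 ± 0.082 and -0.74 ± 0.093. Inhbb, a subunit of activin B, and the ribosomal RNA gene n-R5-8s1 were also among them, and the latter was uneven in wild type at 18.2 and 28 CPM.

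**Figure D4:**
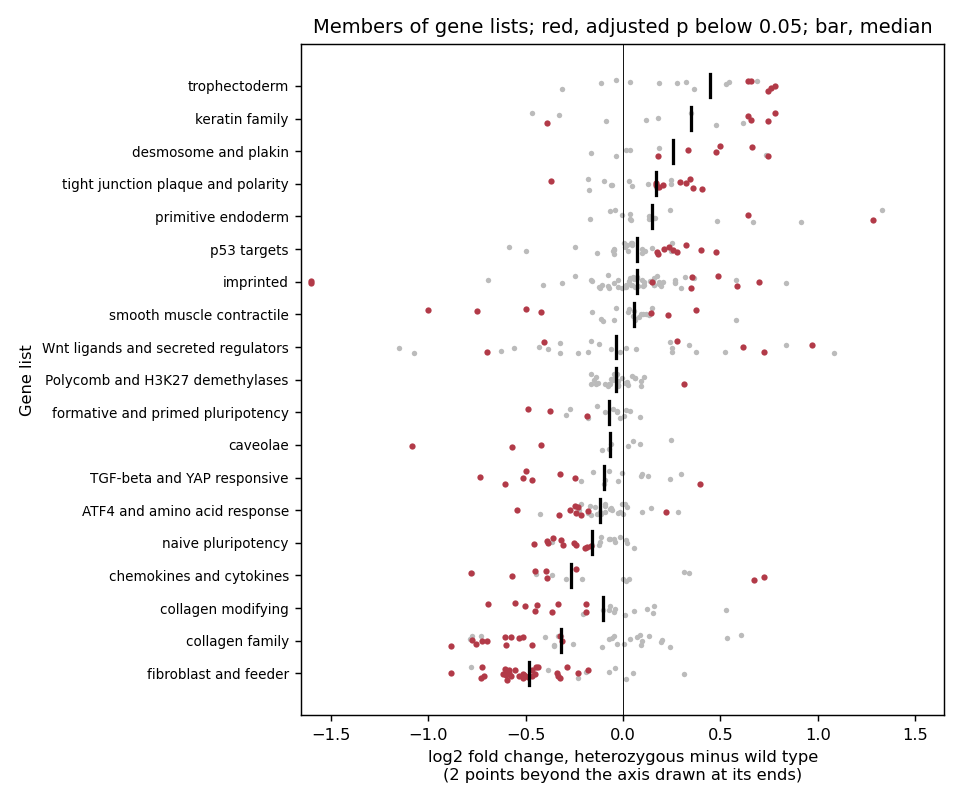
Each row is 1 of 19 gene lists and each point a tested member, placed by its log2 fold change, heterozygous minus wild type, with 2 points beyond the axis drawn at its ends. Red points passed the adjusted p of 0.05 and black bars are medians; the fibroblast and feeder list lies lowest at -0.48 and the trophectoderm list highest at 0.45.

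Smooth muscle genes changed in both directions. Of 25 tested, 4 fell and 3 rose, and the median log2 fold change was 0.05. Those that fell are the smooth muscle isoforms Actg2 and Acta2 of actin, the myosin heavy chain Myh11 and the light chain Myl9. Actg2 stood at 5.34 and 6.54 CPM in the wild-type libraries and 3.01 and 2.89 CPM in the heterozygous libraries (adjusted p = 0.000389) and Acta2 at 244 and 257 CPM in the wild-type libraries and 179.7 and 175 CPM in the heterozygous libraries (log2 fold change -0.50 ± 0.044, adjusted p = 6.77e-07). Those that rose, Smtn, Tpm1 and Cald1, encode actin-binding proteins found in many cells, at 0.38 ± 0.064, 0.23 ± 0.039 and 0.14 ± 0.04. With any one library left out, fewer genes of the list rose. Fewer also fell, except without heterozygous replicate 2. The smooth muscle marker Tagln gave 0.06 ± 0.068 (adjusted p = 0.748). Of the 6 actin isoforms the cytoplasmic Actg1 and the skeletal Acta1 rose, by 0.16 and 0.42, in contrast to Actg2 and Acta2. The fibroblast and feeder list fell as well, and its part in these differences was not tested.

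Caveolae, the flask-shaped pits of the plasma membrane, are built from caveolins and cavins. Of 10 tested genes 3 fell: Cavin2, Cav1 and Ehd2, an ATPase at the neck of the pit. Cav1 was measured at 55.5 and 57.6 CPM in the wild-type libraries and 35.8 and 40.4 CPM in the heterozygous libraries (log2 fold change -0.57 ± 0.062, adjusted p = 9.92e-06) and Ehd2 at 31.5 and 33.2 CPM in the wild-type libraries and 23.5 and 24.7 CPM in the heterozygous libraries (log2 fold change -0.42 ± 0.069, adjusted p = 0.000719). The other 7 did not pass, among them Cavin1 at 0.09 ± 0.045 (adjusted p = 0.351). All 3 calls held with each library left out. In a list of 20 genes that respond to TGF-beta or YAP, 7 fell and 1 rose. Tgfb3, a TGF-beta ligand, fell from 10.4 and 10.3 to 6.03 and 6.38 CPM. Ankrd1 fell by 0.61, while the ligand Tgfb2 rose by 0.39, a call that was lost in 3 of the 4 fits with a library left out. Among regulators of YAP the angiomotins Amot and Amotl1 rose by 0.29 and 0.41. The targets Ccn2 and Ccn1 went in different directions, at -0.33 ± 0.041 and 0.21 ± 0.041, both past the test. Thbs1, which also fell, is in the fibroblast and feeder list as well.

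In the list for naive pluripotency, which also holds general pluripotency factors such as Pou5f1 and Sox2, a set of genes fell slightly. Of 24 tested, 11 fell and none rose, 13 did not pass, and the median log2 fold change was -0.16. The orphan receptors Esrrb, Nr5a2 and Nr0b1 gave -0.38 ± 0.045, -0.39 ± 0.08 and -0.46 ± 0.068. Esrrb was measured at 123 and 128 CPM in the wild-type libraries and 95.8 and 96.9 CPM in the heterozygous libraries (adjusted p = 1.92e-05). Zfp42, the classical marker Rex1, fell from 128 and 128 to 103 and 102 CPM. Sox2 and Nanog fell by 0.19 and 0.16, and Pou5f1 gave -0.12 ± 0.045 without passing (adjusted p = 0.153). The count of 11 fell to 5 without wild-type replicate 1, to 3 without wild-type replicate 2, to 6 without heterozygous replicate 1 and to 4 without heterozygous replicate 2. The medians of the list in the 2 heterozygous libraries, relative to the wild-type mean, were -0.147 and -0.152. Klf2 and Zfp42 lie on chromosome 8, most of whose genes were lower, as described below, and without them the median was -0.14.

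Of 16 formative genes 13 did not pass, and the median log2 fold change was -0.07. Foxd3, Otx2 and the de novo methyltransferase Dnmt3a fell, by 0.49, 0.37 and 0.19, and with one library left out 1 or 2 genes of the list fell. Foxd3 had 12.1 and 11.9 CPM in the wild-type libraries and 8.16 and 8.94 CPM in the heterozygous libraries and Otx2 had 22 and 22.4 CPM in the wild-type libraries and 17.1 and 17.1 CPM in the heterozygous libraries. Among 21 genes of DNA methylation and imprint maintenance Dnmt3a and Dnmt3l fell and Tet3 rose, by 0.24, and with one library left out 0 or 1 gene fell and 0 rose. Of 18 primitive endoderm genes Cubn and Cited1 rose and none fell, with a median of 0.15. Gata6, the factor that specifies this lineage, had 0.851 and 0.548 CPM in the wild-type libraries and 1.08 and 1.58 CPM in the heterozygous libraries and did not pass (log2 fold change 0.91 ± 0.32, adjusted p = 0.123), and Sox17, Foxa2, Hnf4a and 4 others were below the count filter. Cited1, a transcriptional coactivator, gave 0.64 ± 0.15 (adjusted p = 0.0154), and lost its call without either wild-type library or without heterozygous replicate 2, with adjusted p between 0.0594 and 0.207. In germline genes 2 of 22 fell, Tex14, needed for intercellular bridges, from 11.7 and 10.6 to 7.31 and 7.81 CPM, and Hormad1, of the meiotic chromosome axis, from 8.71 and 8.69 to 5.87 and 6.5 CPM, and 1 germline gene fell without any one library other than heterozygous replicate 2. None of the 21 genes of the 2-cell-like state reached the count filter.

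Lists of other cell types gave between 1 and 3 calls each. Of 19 macrophage and blood genes 7 were tested and Srgn alone rose. The macrophage marker Adgre1 was at 0 in all 4 libraries, and Lyz2, Itgam and C1qa were below the count filter. The summed level of the 7 was 64.4 and 62.8 CPM in wild type and 63.8 and 62.4 CPM in the heterozygous libraries, so the groups overlapped. Of 11 endothelial genes Flt1, a VEGF receptor, rose by 0.37 and Pecam1 fell by 0.21. Among 15 genes of neuroectoderm and neurons the filament genes Nes and Nefl rose by 0.19 and 0.31 and the adhesion molecule Ncam1 fell by 0.31. In primitive streak and mesoderm Wnt3 rose and Foxc2 fell among 17, and the streak gene T gave 0.44 ± 0.15 (adjusted p = 0.114). With one library left out the endothelial, neural and streak lists each gave between 0 and 2 calls.

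Wnt ligands and their secreted regulators changed in both directions. Of 30 tested, 4 rose and 2 fell, and the median log2 fold change was -0.04. Wnt7a rose from 2.86 and 2.62 to 4.86 and 5.9 CPM (log2 fold change 0.97 ± 0.16, adjusted p = 0.00074), and Wnt4, a ligand of kidney and gonad development, from 12.6 and 12.1 to 20.9 and 19.9 CPM (log2 fold change 0.72 ± 0.088, adjusted p = 3.10e-05). Wnt3, the ligand that starts the primitive streak, rose from 5.41 and 4.19 to 7.39 and 7.44 CPM and Wnt7b by 0.28. Wnt5a, the main ligand of the branch independent of beta-catenin, fell from 12.5 and 13.3 to 9.12 and 10.3 CPM. Notum, a secreted enzyme that inactivates Wnt ligands, fell from 11.4 and 12.3 to 7.92 and 6.65 CPM (log2 fold change -0.70 ± 0.11, adjusted p = 0.00035). Wnt3 lost its call without wild-type replicate 2 and without heterozygous replicate 2, at log2 fold changes of 0.45 and 0.61. With any one library left out, fewer genes of this list passed than with all libraries, so its weaker calls are uncertain.

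In reception and response the share of genes that passed was close to the 5.19% over all genes. Of 33 receptors and cytoplasmic components Fzd6 rose (0.29 ± 0.072) and Lgr6 fell (-0.40 ± 0.099), each a call that was lost in some fits with a library left out. Of 14 targets of beta-catenin Notum was the 1 that passed, while Axin2, the usual reporter of the pathway, had 14.2 and 14.3 CPM in the wild-type libraries and 17.7 and 16.9 CPM in the heterozygous libraries (log2 fold change 0.28 ± 0.091, adjusted p = 0.0891), and Sp5 gave 0.73 ± 0.26 (adjusted p = 0.139). In the BMP pathway, 23 genes in all, the ligand Bmp8b rose from 9.6 and 8.77 to 14.4 and 16.1 CPM and the target Id2 by 0.36. The extracellular BMP antagonist Grem1 fell from 45.5 and 45.1 to 36.6 and 34.9 CPM. In the LIF pathway Pim1 rose by 0.24, and Mras and Klf4 fell by 0.63 and 0.25, with between 0 and 2 genes of that list lower when a library was left out. Of 12 Hedgehog genes 4 fell, among them Gli2 (-0.58 ± 0.077), and Gli3 rose (0.21 ± 0.055). Between 1 and 2 Hedgehog genes fell when a library was left out, and none rose in 3 of the 4 fits. In the retinoic acid pathway, 17 genes, the receptors Rara and Rarg fell, by 0.38 and 0.34, and Rdh10, which makes the precursor retinaldehyde, rose by 0.56.

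Of the Polycomb genes and the proteins that shape chromatin loops 1 passed the test. Over all genes tested 5.19% passed, a share that gives few calls in lists of this size. Of 34 Polycomb subunits and H3K27 demethylases Pcgf5, a subunit of a variant of the complex PRC1, rose (0.31 ± 0.076, adjusted p = 0.0193) and none fell. That call was lost without either wild-type library and without heterozygous replicate 2. The catalytic subunit Ezh2 gave -0.02 ± 0.043 (adjusted p = 0.86) and Eed -0.04 ± 0.042 (adjusted p = 0.739). Of 17 CTCF and cohesin genes 0 passed in edgeR, 3 reached an unadjusted p below 0.05 and 0 passed in DESeq2. Ctcf gave -0.14 ± 0.041 (adjusted p = 0.0529) and Rad21 -0.02 ± 0.042 (adjusted p = 0.898). Ctcf and Mau2, the latter at -0.15, lie on chromosome 8, most of whose genes were lower, as described below. Without these 2 genes the median of the list was -0.0002, against -0.0097 with them. Over 27 tested Hox genes, which are classical Polycomb targets, the median log2 fold change was -0.38 and none fell past the test. Their summed level was 32.1 and 31.4 CPM in wild type against 27.6 and 28.1 CPM in the heterozygous libraries. Among 51 other developmental transcription factors Tbx20 rose, and Foxc2, Foxs1, Pax8 and Prrx1 fell. None of that list rose and 1 or 2 fell when a library was left out. Foxs1 had 2.86 and 2.98 CPM in the wild-type libraries and 1.21 and 1.73 CPM in the heterozygous libraries and Pax8 2.04 and 2.11 CPM in the wild-type libraries and 1.08 and 1.28 CPM in the heterozygous libraries.

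Stress and growth pathways showed small shifts. Of 30 targets of p53, 9 rose and none fell, with a median of 0.07. The largest were Perp, also a desmosome protein, Plk2, a stress-induced kinase, and Pmaip1, which encodes the cell death protein Noxa, at 0.48 ± 0.047, 0.40 ± 0.045 and 0.32 ± 0.043. The usual marker Cdkn1a had 77.5 and 81.7 CPM in the wild-type libraries and 81.4 and 82.2 CPM in the heterozygous libraries and did not pass (log2 fold change 0.04 ± 0.048, adjusted p = 0.763). The count of 9 was 4 without wild-type replicate 1 or heterozygous replicate 2 and 6 without either other library. Of 34 genes of ATF4 and the amino acid response 8 fell and 1 rose. Nupr1, a stress factor of chromatin, fell from 19.5 and 19.2 to 13.3 and 13.3 CPM. The serine synthesis genes Psat1 and Psph fell by 0.18 and 0.24, and Shmt2, whose enzyme interconverts serine and glycine, by 0.24. Phgdh, also of serine synthesis, did not pass (log2 fold change -0.13, adjusted p = 0.186). Among the 8, Gpt2, Aars and Slc7a5 lie on chromosome 8. That count was 6 without wild-type replicate 1, 2 without wild-type replicate 2, 5 without heterozygous replicate 1 and 3 without heterozygous replicate 2.

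Among 34 genes of glycolysis and hypoxia 4 rose and 3 fell. Slc2a3, the neuronal type glucose transporter, rose from 424 and 426 to 532 and 549 CPM, and Ndrg1, Pfkfb3 and Slc2a1 by 0.46, 0.35 and 0.17. The peptide hormone gene Adm, and Kdm3a and Pdk1, all targets of hypoxia, fell, but with one library left out 0 or 1 gene of the list fell. Among 30 sterol and fatty acid synthesis genes, 23 synaptic vesicle genes and 23 clustered protocadherins 0 passed in edgeR and 0 in DESeq2, and 5, 4 and 2 of them reached an unadjusted p below 0.05. Of 31 cell cycle genes Ccnd2, a D-type cyclin, fell from 74 and 75.9 to 53.7 and 55.1 CPM, with Mcm5 and Cdt1 of chromosome 8. The 3 of 85 ribosomal protein genes and the 4 of 82 nuclear oxidative phosphorylation genes that fell include Rpl13, Ndufb7, Ndufa13 and Cox4i1 of chromosome 8. These counts are near the 2.95% of all genes that fell, and with one library left out they ran from 0 to 9 ribosomal and from 0 to 6 oxidative phosphorylation genes.

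Chemokines moved both ways. Of 18 tested chemokines and cytokines 6 fell and 2 rose. Ccl2, which attracts monocytes, fell from 6.6 and 6.62 to 4.1 and 3.61 CPM. Il1rl1, Csf1, Il11, Cxcl14 and Mif fell by 0.57, 0.45, 0.39, 0.39 and 0.24 on the log2 scale. Cxcl16 and Cxcl10 rose, from 10.6 and 10.5 to 17.3 and 16.2 CPM and from 1.87 and 1.84 to 2.93 and 3.19 CPM. The 6 genes were 3, 2, 4 and 1 when wild-type replicates 1 and 2 and heterozygous replicates 1 and 2 were left out in that order. Among 31 interferon and MHC class I genes the guanylate-binding proteins Gbp2 and Gbp3 rose, and Oas1a and Ifitm1 fell. With one library left out 1 gene of that list rose and 0 or 1 fell. Of 6 tested members of the guanylate-binding family 3 rose, or 1 or 2 with a library left out. Gbp2 had 19.7 and 19.8 CPM in the wild-type libraries and 30.2 and 28.4 CPM in the heterozygous libraries (log2 fold change 0.57 ± 0.071, adjusted p = 4.05e-05). In the EGF family the ligand Tgfa rose (0.63 ± 0.13) and the ligand Ereg fell (-0.55 ± 0.11), each a call that was lost in some fits with a library left out.

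By chromosome, chromosome 8 stood apart. There, 122 of 871 tested genes fell and 4 rose, or 14.0% and 0.459%, against 1.58% to 3.10% lower and 1.28% to 4.41% higher on each of the other 18 autosomes and X. The shift was shallow. The genes of chromosome 8 that fell had a median log2 fold change of -0.24, against -0.41 for those that fell elsewhere outside Y. Relative to the wild-type mean, the median gene of chromosome 8 was at -0.117 and -0.131 in the 2 heterozygous libraries. In the homozygous libraries it was at 0.397 and 0.391. From one end of the chromosome to the other, in 4 successive sets of its tested genes, the medians were -0.08, -0.14, -0.13 and -0.14. Outside chromosome 8 and Y, 368 of 15822 genes fell and 367 rose, so the excess of lower over higher calls lay on chromosome 8.

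**Figure D5:**
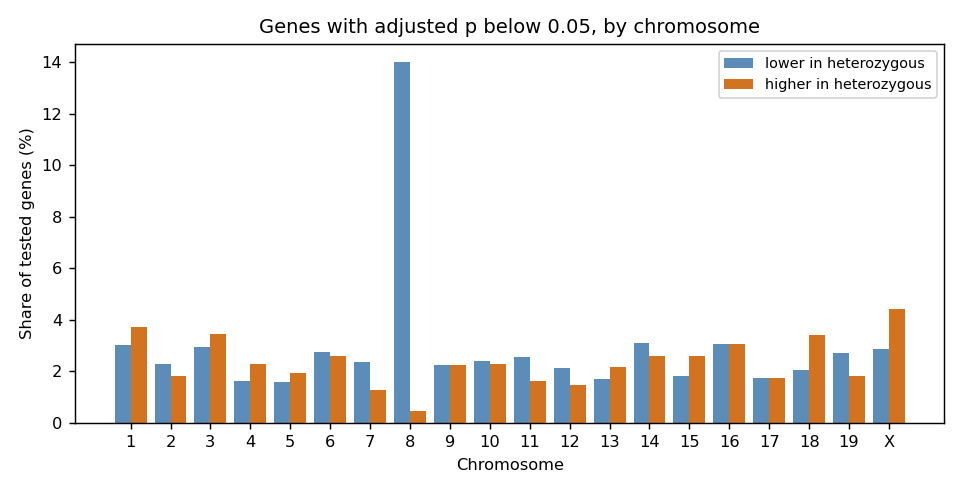
Bars give the share of tested genes of each chromosome that were lower (blue) or higher (orange) in heterozygous cells at an adjusted p below 0.05, for the 19 autosomes and X. Chromosome 8 stands out with 14.0% lower; no other bar reaches 5%, and Y, with 8 tested genes, is not drawn.

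Around the deletion, 64 genes within 5 Mb of the start of Wnt6 were tested, Wnt6 and Cdk5r2 of the deletion interval among them. Over all genes tested 2.23% rose and 2.95% fell. Of the 64 genes 3 rose and 3 fell, with a median of -0.01. Those that fell were Fn1, Igfbp2 and Tns1, which encode fibronectin, a binding protein of insulin-like growth factors and the focal adhesion protein tensin, by 0.34, 0.32 and 0.39. Fn1 belongs to the fibroblast and feeder list. Those that rose were Ptprn, Acsl3 and Utp14b. Utp14b is a retrogene of the X-linked Utp14a within Acsl3, and it rose from 34.5 and 35.5 to 49 and 48.9 CPM (log2 fold change 0.48 ± 0.057, adjusted p = 1.96e-05). Its host Acsl3, an acyl-CoA synthetase, rose by 0.26, and its parent Utp14a fell from 263 and 274 to 199.7 and 205 CPM (log2 fold change -0.41 ± 0.042, adjusted p = 4.60e-06). Retrogene and parent share sequence, and reads of the one can be assigned to the other.

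Start windows were searched on both strands for a CArG box, for a GATA site, that is the letters GATA with A or T before them and A or G after them, and for TATAAA. A CArG box can overlap TATAAA. Of the 28 genes past both thresholds 21 had a window in the RefSeq table. Of these windows 6 (28.6%) held TATAAA, 6 (28.6%) a GATA site and none a CArG box, against 7.39%, 18.5% and 1.35% of the windows of all 11807 tested genes found. Their median number of CpG dinucleotides was 6, against 20 over all windows. Of the 30 fibroblast and feeder genes that fell 19 had a window, with TATAAA in 5 (26.3%) and a median of 10 CpG dinucleotides. Among the contractile genes that fell, Myl9 held a CArG box and Acta2 none in this window. These are matches of letters, and no test was made on them.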

How the data were processed

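Poly(A) RNA of mESCs was sequenced from stranded libraries. The table that the authors deposited gives unnormalised read counts, which the submitters' processing notes tie to Trimmomatic 0.39, STAR 2.6.1d, SAMtools 1.9 and featureCounts 1.6.4 on mm10 (GRCm38). The strand setting and the handling of multiply mapped reads are not given in the sources used here. The deposited table held whole-number counts with no summary entries.

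Genotype and replicate came from the sample labels. A quasi-likelihood model with 3 genotypes was fitted to all 6 libraries with edgeR 4.0.16 (limma 3.58.1, R 4.3.3), with TMM factors, after the filter of 10 counts in 2 of the 4 libraries compared; the common coefficient of variation was 3.52%. Thresholds were an adjusted p of 0.05, with and without an absolute log2 fold change above 1. Depth gives a floor of 3 counts for values at 0. The procedure was tested on simulated data. Positions came from GENCODE vM21; 10 tested genes had none. A gene list used 1 identifier for each symbol. Members and lists were chosen with earlier results of these data known. The genes named were all genes past both thresholds, the 10 highest and 10 lowest log2 fold changes past the adjusted p at a mean of 10 CPM or more, up to 4 members of each list with the largest changes past it, the 2 most abundant where none passed, the genes around Wnt6 and the 4 most abundant cell type markers. Members of the lists added later, and other genes named for their role or position, were chosen after their values were seen. For symbols with several promoter windows the first listed was used. Exact intervals compared the summed counts of the groups. The replicate numbers did not pair the samples: deviations of same-numbered wild-type and heterozygous libraries correlated at 0.0165 over 16701 genes.

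Alternatives were DESeq2 1.42.0 on 6 or 4 libraries, edgeR with DESeq2 size factors or with unadjusted totals, 4 other minimum counts, the 4 libraries alone, robust estimation, the replicate number as a block and each library left out. Counts without chromosome 8 were added after seeing the data. Summaries used Python 3.11.15, pandas 2.3.3, numpy 2.4.6 and scipy 1.17.1. Results for some named genes are not reported here.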

Additional observations from a re-analysis of the deposited data

Results flagged for a closer look

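For 10 of the 28 genes past both thresholds the level differed between the homozygous and the heterozygous deletion in the direct test (adjusted p below 0.05, edgeR). This comparison shares the heterozygous libraries with the one above. Nap1l5, Peg13 and Sprr2k were higher in homozygous cells, by 5.74 ± 0.65, 2.32 ± 0.17 and 1.82 ± 0.63 on the log2 scale (± standard error, 2 libraries in each group). All 3 had fallen in heterozygous cells.

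Srgn, Cubn and the antisense Gm15726, which had risen in heterozygous cells, were lower in homozygous cells, with differences of -2.98 ± 0.6, -1.21 ± 0.18 and -1.21 ± 0.14. Cubn stood at 2.19 and 1.77 CPM in the homozygous libraries and Srgn at 0.0874 and 0.0769 CPM, near the wild-type values of each.

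The Y-linked genes Uty, Ddx3y and Eif2s3y, and Cavin2, had fallen in heterozygous cells and were lower still in homozygous cells, with differences of -1.13 ± 0.38, -0.81 ± 0.2, -0.78 ± 0.22 and -0.59 ± 0.14. Cavin2 stood at 6.75 and 8.11 CPM in the heterozygous and 5.73 and 4.27 CPM in the homozygous libraries.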

How the results depend on the processing

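The genes past the adjusted p numbered 373 higher and 493 lower. DESeq2 gave 198 and 288 on 6 libraries and 240 and 280 on 4, and the 4 libraries alone in edgeR gave 571 and 728. With one library left out the counts ran from 154 to 239 higher and from 194 to 369 lower. Past both thresholds there were 7 and 21. DESeq2 gave 3 and 8 on 6 libraries and 3 and 6 on 4, the 4 libraries alone 13 higher, and testing any gene with a count 15 and 34. With one library left out these counts ran from 3 to 8 and from 11 to 17. The other settings, and the counts without chromosome 8, stayed within 1.5 times. Of the 28 genes DESeq2 gave no adjusted p to 17 on 6 libraries and to 19 on 4, and called the remaining 11 and 9. No fit reversed the sign of any of the 28.

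With the replicate number as a block, a replicate block, 347 genes were higher and 469 lower, 6 and 22 past both thresholds. For the 179 named genes tested, 2303 of 2629 repeats kept direction and side of the threshold, 278 lost it, 31 gained it, and 17 changed the sign of a gene that had not passed. With one library left out the median of the endothelial list ran from -0.0655 to 0.0451 and that of the keratin family from -0.0548 to 0.663, and both changed sign without heterozygous replicate 1. The cause was not tested. Low counts limit Wnt6, Cdk5r2 and the Hox genes.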
